A study of Homo sapiens with 14 samples.

Results

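The transcripts examined are those of the mitochondrial ribosomal proteins, the nuclear-encoded proteins of the ribosome that works inside mitochondria. Members were all genes of the deposited count table whose HGNC symbol is MRPL or MRPS followed by a number and at most 1 further letter, which gave 78 of 18006 genes. Of these, 76 had enough reads to be tested. MRPL43 had 0 counts in every library, and MRPL57 lay between 0 and 0.78 CPM (counts scaled to the same total in each library). MRPL43 shares exonic bases with SEMA4G and TWNK on the opposite strand, and 5 pseudogenes carry the name of MRPL57. Neither is described further.

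RNA was sequenced from 14 libraries of HEK 293 cells, a line derived from human embryonic kidney and long established. The groups were CFIm25 knockdown (n = 2), CFIm68 knockdown (n = 3), CFIm25 overexpression (n = 3), CFIm68 overexpression (n = 3) and a wild-type control (n = 3). CFIm25 and CFIm68, encoded by NUDT21 and CPSF6, are subunits of cleavage factor Im, which helps to choose where a pre-mRNA is cut and polyadenylated. Knockdown used siRNA, and all groups share the HEK 293 background. The sources used here do not give the promoter of the overexpression constructs, whether the overexpressing cells are clones, or what the control cells received (labelled wild type). The comparisons ask how the level of each member differs when either subunit is lowered or raised. In bulk libraries, fewer cells with a transcript and less of it per cell cannot be told apart.

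NUDT21 stood at 53.8 ± 1.2 CPM in CFIm25 knockdown and 729 ± 55.6 CPM in CFIm25 overexpression, against 514 ± 19.6 CPM in control (SD). CPSF6 stood at 41.6 ± 0.996 CPM in CFIm68 knockdown and 730.2 ± 17.4 CPM in CFIm68 overexpression, against 268 ± 5.78 CPM in control. Neither knockdown moved its own target alone. NUDT21 stood at 232 ± 9.27 CPM in CFIm68 knockdown, and CPSF6 at 533 ± 10.2 CPM in CFIm25 knockdown. In the overexpression groups NUDT21 had 597 ± 47.9 CPM with CFIm68 raised, and CPSF6 had 252 ± 13.3 CPM with CFIm25 raised. Libraries held 15822467 to 33895308 counts, and within groups log2 CPM correlated across genes at r = 0.993 to 0.997. Of 6 HEK 293 markers, 5 (all but NEFM) were at 1 CPM or more in every library. Among mature kidney markers, SLC34A1 and AQP2 were at 0 throughout. PTPRC and HBB (blood) and DCN and COL1A2 (fibroblast) were at 0 as well. The fibroblast marker COL1A1 was present, with group means of 26.8 to 63.7 CPM, and LUM had 0.077 to 2.61 CPM. COL1A1 made up most of the fibroblast sum below, and KRT17 and CDH1 made up most of the epithelial sum. The summed level of 5 epithelial markers was 13.7 to 15.2 CPM in CFIm25 knockdown, 18.1 to 22.3 CPM in CFIm68 knockdown, 15.7 to 17.5 CPM in CFIm25 overexpression, 8.74 to 10.3 CPM in CFIm68 overexpression and 9.93 to 11.4 CPM in control. The summed level of 6 fibroblast markers was 53.3 to 58.2 CPM in CFIm25 knockdown, 66.3 to 68.6 CPM in CFIm68 knockdown, 47.3 to 54.6 CPM in CFIm25 overexpression, 25.3 to 28.7 CPM in CFIm68 overexpression and 50.8 to 55.4 CPM in control. Their part in the changes of the members was not tested. No source says that replicates came from separate cultures, and the p-values therefore rest on a spread among libraries that may be technical.

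The mitochondrial ribosome, or mitoribosome, translates the few messages of the mitochondrial genome, all of which encode core subunits of the respiratory chain and ATP synthase. Its ribosomal RNAs come from mitochondrial DNA, while all of its proteins are made in the cytosol and imported. Many of the proteins descend from the bacterial ancestor, and others were added during the evolution of mitochondria. Of the 78 members, 51 belong to the large subunit (mtLSU) and 26 to the small subunit (mtSSU), and MRPS18A and MRPS30 sit in the large subunit despite their names. MRPS36 is now described as a subunit of the 2-oxoglutarate dehydrogenase complex and was assigned to neither. In the assignment used here 47 have a bacterial counterpart, with MRPS18A counted among them, and 30 are mitochondria-specific. The members lie on 21 chromosomes.

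Members had fewer exons and shorter transcripts than the tested genes at the median. The annotated transcript of a member had a median of 5 exons, 1458.5 bases and a 401-base 3' UTR, against 9 exons, 3136 bases and 1070 bases over tested genes (GENCODE 29). Promoters, here 250 bases before and 50 after the RefSeq start on GRCh38.p14, were found for 69 members among 27305 promoters. The letters AAGATGGC, which match the site of the activator YY1, were in 20 of the 69 on either strand (29%), against 3.03% of all promoters and 5.27% of promoters of tested genes. The letters CCGGAAG of the ETS family, to which the mitochondrial regulator GABPA belongs, were in 29 of 69 (42.0%), against 10.7% and 19.0%. The NRF1 core GCGCATGC was in 6 (8.70%, against 3.27% and 5.26%) and the TATA box letters TATAAA in 2 (2.9%, against 12% and 5.68%). All 4 were searched on both strands. The ETS and YY1 letters can share AAG, which was the case in 0 of the 69 member promoters. A match is a description of the sequence only.

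The YY1 letters kept a position. In 15 of 69 members (21.7%) they lay on the strand of the gene within the first 50 transcribed bases, beginning at base 7 to 36, against 1.39% of all promoters and 3.08% of promoters of tested genes. The letters include an ATG. The 40-base stretches around them are shown for the 7 of these members that are among the largest changes of a comparison, with the YY1 letters in capitals, beginning at transcribed base 9 to 24 (GRCh38.p14).
MRPL20, chr1:1407255-1407294, reverse strand: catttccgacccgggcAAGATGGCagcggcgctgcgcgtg
MRPL42, chr12:93467506-93467545, forward strand: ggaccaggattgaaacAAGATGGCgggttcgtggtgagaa
MRPL45, chr17:38297165-38297204, forward strand: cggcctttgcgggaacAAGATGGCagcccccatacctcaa
MRPL50, chr9:101398572-101398611, reverse strand: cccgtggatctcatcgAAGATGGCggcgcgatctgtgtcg
MRPS18B, chr6:30617847-30617886, forward strand: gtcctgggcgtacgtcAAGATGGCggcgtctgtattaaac
MRPS24, chr7:43869475-43869514, reverse strand: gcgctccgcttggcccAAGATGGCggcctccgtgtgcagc
MRPS27, chr5:72320201-72320240, reverse strand: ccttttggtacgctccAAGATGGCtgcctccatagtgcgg
The changes of members with and without the YY1 letters are set side by side. In CFIm25 knockdown the median log2 change was 0.11 over 20 tested members with the letters and 0.08 over the 47 without, and in CFIm68 knockdown these medians were -0.05 and -0.04. In CFIm25 overexpression the median was -0.14 over the 20 tested members with the letters and -0.17 over the 47 without. In CFIm68 overexpression these medians were 0.09 and -0.05. YY1 itself was lower in CFIm68 overexpression than in control (log2 change -0.26 ± 0.05, edgeR adjusted p = 4.2e-04). It was also lower in CFIm68 overexpression than in CFIm25 overexpression (-0.47 ± 0.05). Between those 2 groups the medians with and without the letters were 0.15 and 0.14. The part of YY1 was not tested.

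Of the 78 members, 27 have a start within 1000 bases of the start of a gene on the other strand. Such head-to-head pairs were not counted over all genes. One such pair joins both subunits, MRPL46 and MRPS11 on chromosome 15, whose starts are 34 bases apart in GENCODE 29. The promoter of MRPL46 is shown for that reason (GRCh38.p14) and the promoter of MRPL54 because MRPL54 had the largest rise in both knockdowns. Capitals mark the YY1 letters in MRPL46, and the TATA box letters and the reverse complement of the ETS letters in MRPL54.
MRPL46, chr15:88467339-88467638, reverse strand: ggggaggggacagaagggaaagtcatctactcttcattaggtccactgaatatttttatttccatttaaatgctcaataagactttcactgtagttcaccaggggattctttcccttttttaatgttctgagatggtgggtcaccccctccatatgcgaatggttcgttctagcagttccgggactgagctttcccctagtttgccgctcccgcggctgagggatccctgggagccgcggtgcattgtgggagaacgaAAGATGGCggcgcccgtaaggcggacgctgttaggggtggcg
MRPL54, chr19:3762432-3762731, forward strand: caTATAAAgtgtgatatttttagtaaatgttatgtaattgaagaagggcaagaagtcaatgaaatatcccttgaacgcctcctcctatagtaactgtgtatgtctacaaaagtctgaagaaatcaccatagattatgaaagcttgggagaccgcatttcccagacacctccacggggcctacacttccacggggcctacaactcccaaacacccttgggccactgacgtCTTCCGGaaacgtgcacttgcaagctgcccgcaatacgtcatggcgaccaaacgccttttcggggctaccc
MRPL46 was lower in CFIm25 overexpression than in control (-0.18 ± 0.06, adjusted p = 0.016), and MRPS11 had a log2 change of -0.10 ± 0.08 there that did not pass. In neither knockdown did either gene pass.

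Member levels spanned a wide range. Per kilobase of exon, MRPL12, the stalk protein that recruits translation factors, had the highest mean over all libraries at 190.4 CPM per kb, followed by MRPS34 at 188 and MRPL14 at 136 CPM per kb. The lowest tested members were MRPL41 at 0.351, MRPL34 at 1.3 and MRPS6 at 2.46 CPM per kb. MRPL12 and MRPS34 did not separate, since MRPL12 ranged from 152 to 227 CPM per kb over libraries and MRPS34 from 141 to 244. The median member stood at 25.4 CPM per kb, against 5.36 over all tested genes. Of the 78 members, 74 had a mean of at least 5 CPM. In 16 members exons overlap a same-strand gene, in 29 an opposite-strand gene, and 34 have named pseudogenes, so their reads may be split or shared in a way the sources used here do not state. Among the named members, same-strand overlaps are those of MRPS17 with NIPSNAP2, MRPL28 with PGAP6, MRPS16 with DNAJC9, MRPL33 with BABAM2, MRPS6 with SLC5A3, MRPL53 with CCDC142 and MRPS24 with the read-through gene URGCP-MRPS24. MRPL20 and MRPL42 overlap the small RNA pseudogenes RN7SL657P and RN7SL737P, and MRPL9, MRPL12, MRPL30, MRPL38 and MRPL46 overlap same-strand genes without a symbol. On the opposite strand the named members with an overlap are MRPL9, MRPL11, MRPL13, MRPL19, MRPL20, MRPL23, MRPL34, MRPL37, MRPL38, MRPL43, MRPL44, MRPL47, MRPL49, MRPS2, MRPS9, MRPS11, MRPS14, MRPS16, MRPS18A, MRPS18C, MRPS22, MRPS25 and MRPS27. The longest of these is MRPS18C with ABRAXAS1, at 1956 bases. MRPS36 has 5 named pseudogenes, and MRPS17, MRPL35, MRPL42 and MRPS31 have 4 each.

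Most members differed somewhere among the 5 groups. In a test of any difference (edgeR quasi-likelihood F test with Benjamini-Hochberg adjustment over all tested genes), 68 of 76 (89.5%) passed at an adjusted p under 0.05, against 88.2% of all genes tested. The other 8 were MRPL9, MRPL11, MRPL22, MRPL37, MRPL38, MRPL40, MRPL49 and MRPS11. Differences were small: apart from MRPL41, the log2 changes of tested members lay between -0.68 and 0.79 over the 6 comparisons. The heat map of all libraries shows these differences side by side.

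**Figure D1:**
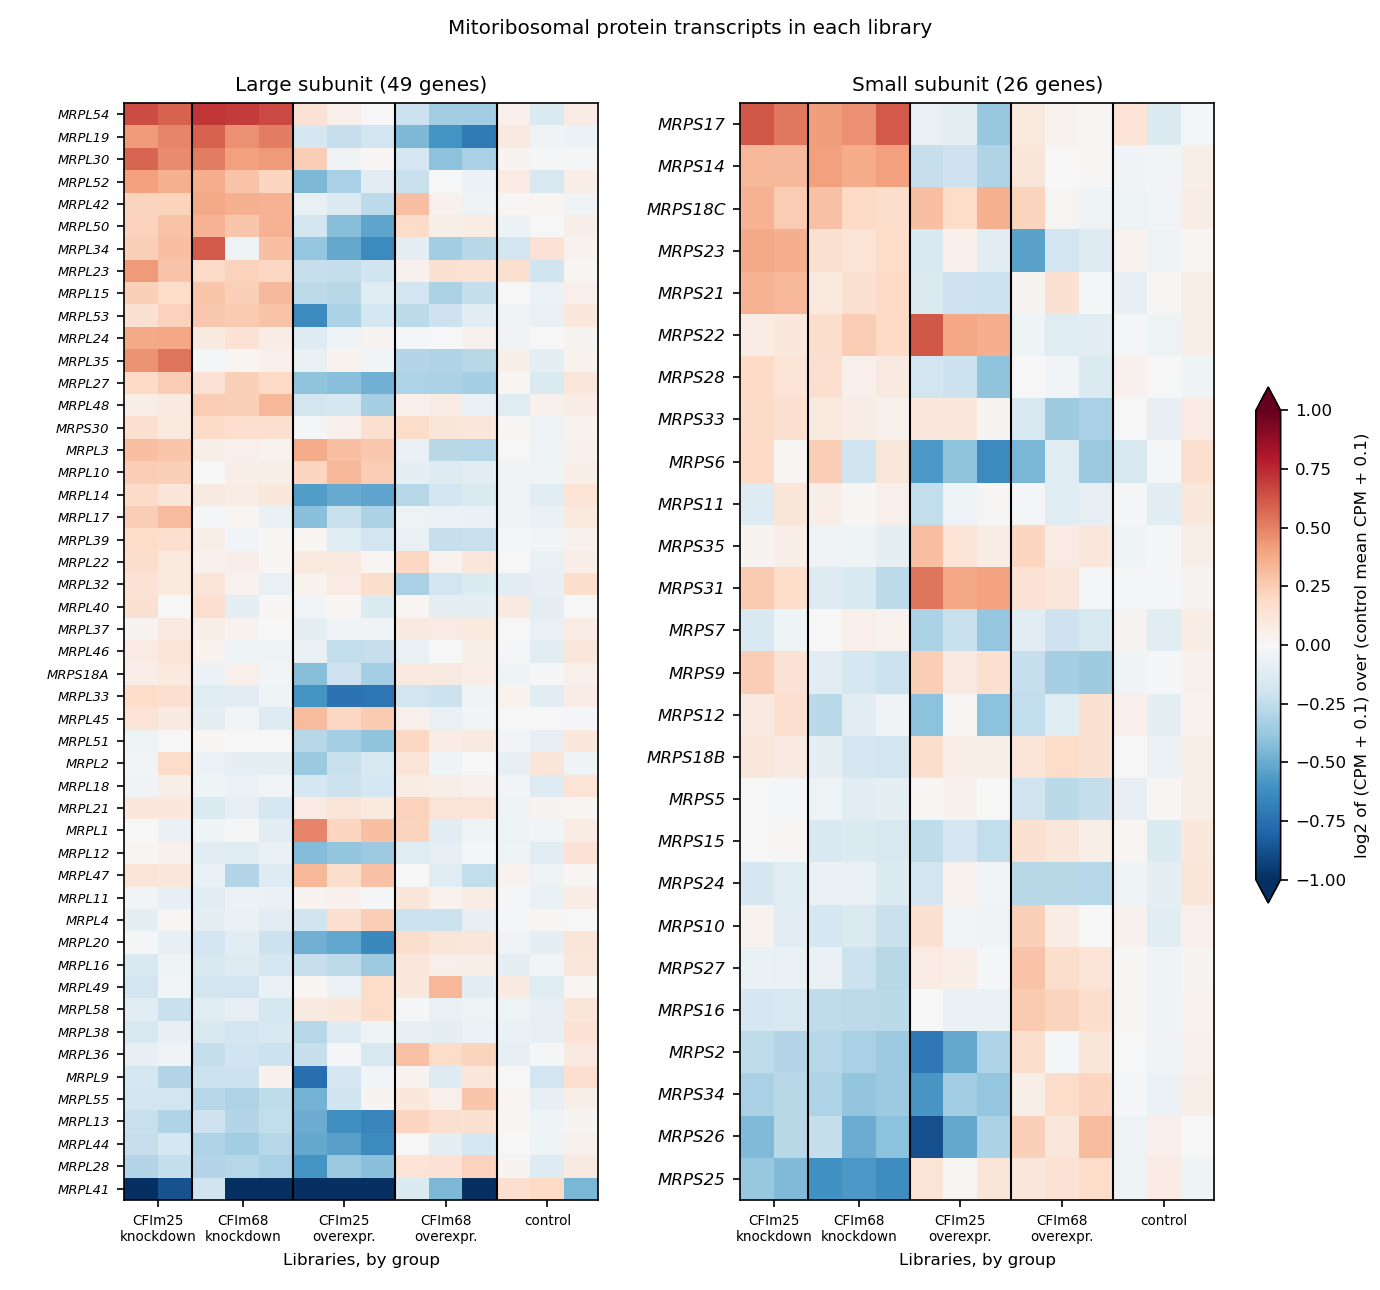
Each row is a tested member of the large subunit (49 genes, left) or the small subunit (26 genes, right) and each column a library, grouped as CFIm25 knockdown, CFIm68 knockdown, CFIm25 overexpression, CFIm68 overexpression and control. Colour is the log2 of CPM + 0.1 over the control mean + 0.1, red for higher and blue for lower, and rows are sorted by their mean over the knockdown libraries, so that MRPL54 and MRPS17 stand at the top and MRPL41 and MRPS25 at the bottom.

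CFIm25 knockdown raised more members than it lowered. Relative to control 25 of 76 members rose (32.9%) and 9 fell (11.8%; edgeR quasi-likelihood test, Benjamini-Hochberg adjusted p under 0.05), against 24.4% of all tested genes higher and 23.2% lower. The median member had a log2 change of 0.10, against 0.00 over all tested genes. The large subunit held 16 of the rises and 4 of the falls among 49, and the small subunit 8 rises and 5 falls among 26. MRPS36 is the remaining rise. All of these comparisons with control share the same 3 control libraries.

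The largest rise in CFIm25 knockdown was that of MRPL54 (chromosome 19, 3762664 to 3768575, hg38), a mitochondria-specific protein at the base of the stalk. It had 30.1 and 28.8 CPM in CFIm25 knockdown, against 19.8, 17.3 and 20.3 CPM in control (log2 change 0.62 ± 0.08, adjusted p = 4.3e-07). MRPS17, a conserved mtSSU protein that binds ribosomal RNA, had 11.6 and 10.8 CPM in CFIm25 knockdown, against 8.23, 6.77 and 7.43 CPM in control (log2 change 0.58 ± 0.12). MRPL30, MRPL35 and MRPL19, 3 conserved mtLSU proteins, rose by log2 changes of 0.53 ± 0.08, 0.50 ± 0.07 and 0.46 ± 0.07. MRPL35 had 31.4 and 33.2 CPM in CFIm25 knockdown, against 23.9, 21.4 and 23.5 CPM in control. In each of these 5 members both knockdown libraries lay above all 3 controls. MRPS36 (0.50 ± 0.07), MRPL52 (0.38 ± 0.08) and MRPL24 (0.38 ± 0.06), the last a protein near the exit of the peptide tunnel, complete the 8 largest rises.

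The falls in CFIm25 knockdown were led, among well-covered members, by MRPS25 (chromosome 3, 15042460 to 15065335), a mitochondria-specific mtSSU protein. It had 209.7 and 199.99 CPM in CFIm25 knockdown, against 264, 287 and 265 CPM in control (log2 change -0.41 ± 0.06, adjusted p = 9.3e-07), with no overlap. MRPS26, MRPS34 and MRPS2, all of the small subunit, fell by log2 changes of -0.35 ± 0.11, -0.30 ± 0.06 and -0.27 ± 0.10. MRPL28 (-0.26 ± 0.07), MRPL13 (-0.26 ± 0.06) and MRPL44 (-0.20 ± 0.07), the last a protein related to ribonuclease III, fell too. MRPL41 had 4 and 13 counts in CFIm25 knockdown, against 16, 17 and 10 counts in control, and its log2 change of -1.37 ± 0.52 rests on these few reads. Neighbours of some of these genes had lower levels as well. The median log2 change of the 50 genes around MRPL28 was -0.49, and that around MRPS34 was -0.47. With such medians removed, MRPL28 (0.22) and MRPS34 (0.17) passed as rises (edgeR adjusted p = 0.0060 and 0.029). MRPL44 (0.021), MRPS2 (-0.083) and MRPL41 (-1.07) no longer passed. The neighbours of MRPS25 ran the other way (0.27). Without CFIm25 knockdown replicate 1 the falls numbered 4, and MRPS26, MRPS2, MRPL44 and MRPL41 were among the calls lost.

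CFIm68 knockdown moved members both ways. Of 76 members 18 rose (23.7%) and 21 fell (27.6%), against 28.3% of all tested genes higher and 28.1% lower, and the median log2 change was -0.02. The subunits differed in their counts: in the large subunit 12 rose and 10 fell, and in the small subunit 5 rose and 11 fell. The mitochondria-specific proteins of the small subunit had 1 rise and 6 falls among 10, with a median of -0.16, and those of the large subunit had 7 rises and 2 falls among 18, with a median of 0.03. No test of the difference between these sets was run.

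The rises in CFIm68 knockdown were again headed by MRPL54, with 31.4, 31.1 and 30.3 CPM, against 19.8, 17.3 and 20.3 CPM in control (log2 change 0.69 ± 0.07, adjusted p = 5.7e-09). MRPL19 (chromosome 2, 75646783 to 75690851) had 101, 91.6 and 94.9 CPM in CFIm68 knockdown, against 70.9, 65.1 and 64 CPM in control (log2 change 0.52 ± 0.06). Every knockdown library of both genes lay above every control. MRPS17 (0.50 ± 0.11), MRPL30 (0.45 ± 0.07), MRPS36 (0.42 ± 0.06) and MRPS14 (0.40 ± 0.06) followed. MRPL42 (0.36 ± 0.07) and MRPL50 (0.32 ± 0.07), 2 mitochondria-specific mtLSU proteins, rose as well.

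MRPS25 fell further in CFIm68 knockdown than any other member that passed, with 179, 183 and 177 CPM, against 264, 287 and 265 CPM in control (log2 change -0.60 ± 0.05, adjusted p = 5.4e-11). The groups did not overlap, and the 50 genes around it had a median log2 change of 0.24. MRPS26 had 26.5, 22.1 and 23.4 CPM in CFIm68 knockdown, against 30.01, 32.2 and 31.2 CPM in control (-0.37 ± 0.10). MRPS34 (-0.35 ± 0.06), MRPS2 (-0.32 ± 0.09), MRPL44 (-0.31 ± 0.06) and MRPL28 (-0.30 ± 0.06) fell. So did MRPL55 (-0.28 ± 0.08) and MRPS16 (-0.26 ± 0.05), the counterpart of a bacterial protein of the small subunit. With the medians of neighbours removed, MRPL28 (0.19) passed as a rise (edgeR adjusted p = 0.0068), and MRPS34 (0.12) and MRPL44 (-0.058) did not pass. In that setting 24 members rose and 15 fell. The falls numbered 12 without control replicate 3.

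**Figure D2:**
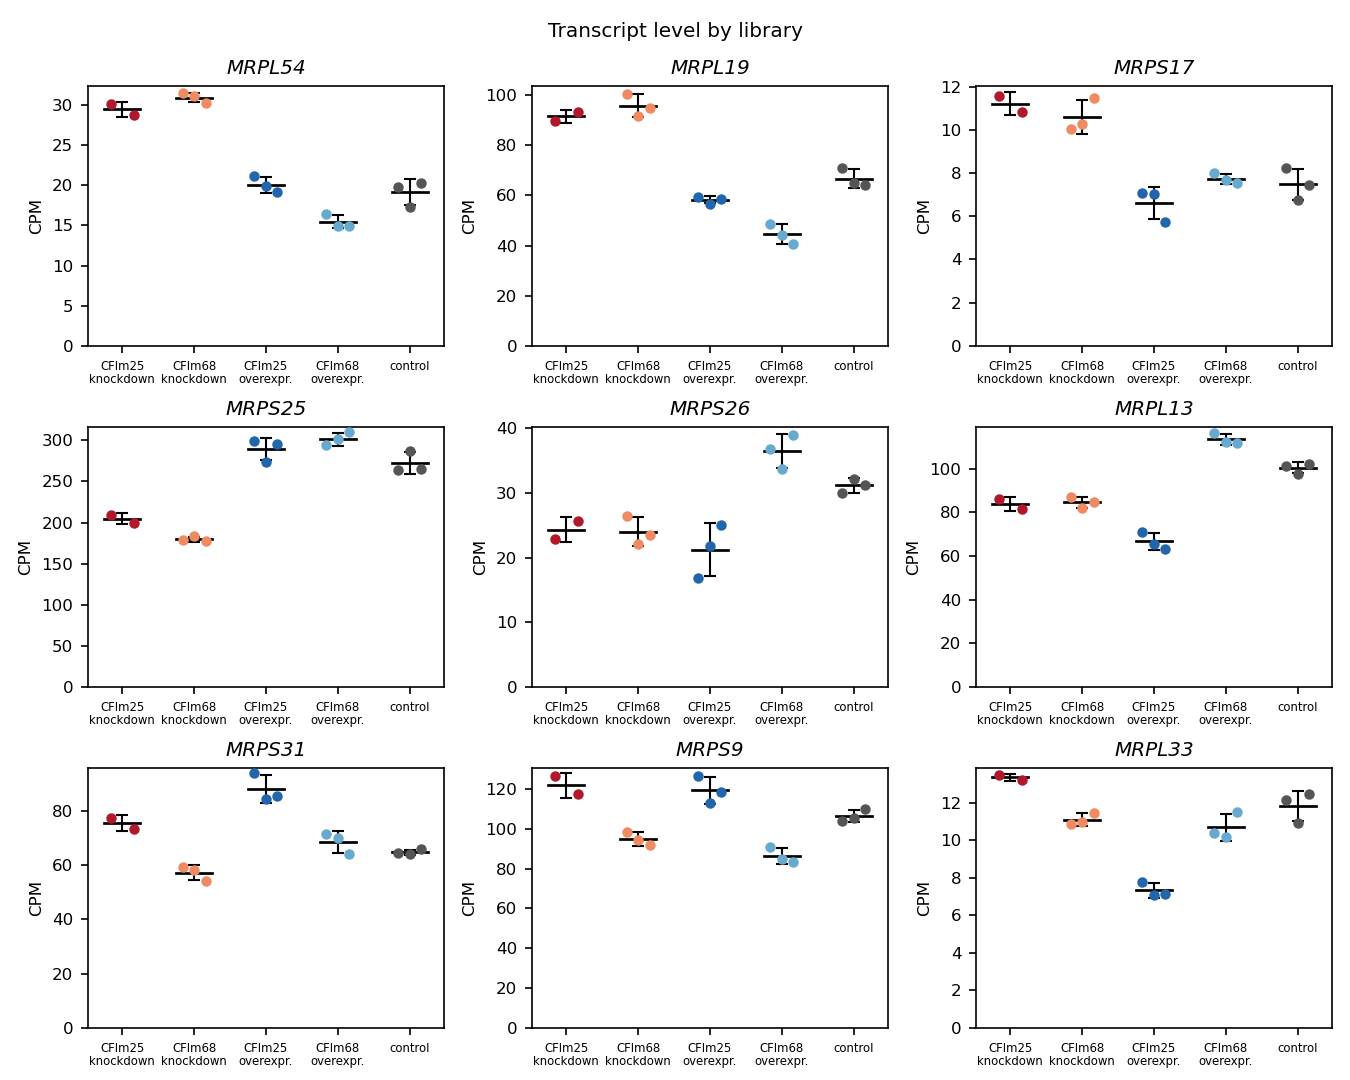
CPM of 9 members in each library, with groups from left to right CFIm25 knockdown, CFIm68 knockdown, CFIm25 overexpression, CFIm68 overexpression and control, each point a library and the bars the mean ± SD. MRPL54 and MRPL19 are above control in both knockdowns and below it in CFIm68 overexpression, MRPS25 is below control in both knockdowns, and MRPL13 and MRPL33 are lowest in CFIm25 overexpression.

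CFIm25 overexpression lowered many members and raised few. Of 76 members 10 rose (13.2%) and 36 fell (47.4%), against 27.7% of all tested genes higher and 29.1% lower, and the median log2 change was -0.16, against -0.002 over all tested genes. In the large subunit 5 rose and 26 fell among 49, and in the small subunit 5 rose and 9 fell among 26. Members assigned a bacterial counterpart had 6 rises and 24 falls among 47. With the medians of 50 neighbouring genes removed, 13 of the 76 members rose and 29 fell, and the median log2 change was -0.09.

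MRPL33 (chromosome 2, 27771717 to 27988087), a small conserved mtLSU protein, had 7.81, 7.07 and 7.13 CPM in CFIm25 overexpression, against 12.1, 10.9 and 12.5 CPM in control (log2 change -0.68 ± 0.10, adjusted p = 1.4e-06). MRPL13, a conserved mtLSU protein on chromosome 8, had 71.1, 65.6 and 63.4 CPM in CFIm25 overexpression, against 101, 97.6 and 102 CPM in control (log2 change -0.59 ± 0.06, adjusted p = 7.6e-10). In both genes all overexpression libraries lay below all controls. MRPS26 (-0.57 ± 0.10), MRPL44 (-0.56 ± 0.06), MRPL20 (-0.54 ± 0.06), MRPS6 (-0.54 ± 0.13) and MRPL14 (-0.53 ± 0.06) fell without overlap too. MRPS26 had 16.9, 21.8 and 25 CPM in CFIm25 overexpression, against 30.01, 32.2 and 31.2 CPM in control. MRPL41 had 0, 4 and 5 counts in CFIm25 overexpression, against 16, 17 and 10 counts in control (log2 change -2.32 ± 0.59, adjusted p = 0.0015).

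The rises in CFIm25 overexpression included mitochondria-specific mtSSU proteins. MRPS22 had 36.4, 30.9 and 30.4 CPM in CFIm25 overexpression, against 23.3, 22.8 and 24.8 CPM in control (log2 change 0.47 ± 0.07, adjusted p = 5.1e-06). MRPS31 (chromosome 13, 40729135 to 40771173) had 93.9, 84.6 and 85.6 CPM in CFIm25 overexpression, against 64.3, 64 and 65.9 CPM in control (log2 change 0.44 ± 0.06). All overexpression libraries of both lay above all controls. MRPL1, a protein of the mobile L1 stalk, rose (0.35 ± 0.08), as did MRPL3 (0.31 ± 0.05), MRPS18C (0.28 ± 0.07), MRPL47 (0.27 ± 0.07), MRPL45 (0.27 ± 0.05) and MRPL10 (0.26 ± 0.05). MRPL45 helps to hold the mitoribosome at the inner membrane, and MRPL10 anchors MRPL12 in the stalk. The 50 genes around MRPL3 had a median log2 change of 0.29, and with such medians removed MRPL3 (0.026), MRPL47 (0.10) and MRPL45 (0.045) no longer passed.

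The change in CFIm25 overexpression followed the exon number of the members. Across 76 members the log2 change and the exon number of the annotated transcript had a Spearman rho of 0.48, against 0.07 across 11920 genes, a description across genes that share libraries. Of 34 members with 2 to 4 exons 0 rose and 22 fell, with a median log2 change of -0.25. Of 19 members with 5 to 6 exons 2 rose and 9 fell (median -0.15), and of 23 with 7 or more exons 8 rose and 5 fell (median 0.07). Over all tested genes 22.3% rose and 32.7% fell at 2 to 4 exons (median -0.07), 28% and 29.3% at 5 to 6 (median -0.01), and 29.1% and 28.3% at 7 or more (median 0.02). For CFIm68 overexpression against CFIm25 overexpression rho was -0.44 over the members and -0.06 over all genes. That comparison reuses the CFIm25 overexpression libraries with the sign turned, so it is not a separate instance of the trend. For the comparisons of CFIm25 knockdown, CFIm68 knockdown and CFIm68 overexpression with control it was -0.09, -0.12 and 0.05 over the members. In CFIm25 overexpression the rho of transcript length was 0.34 and that of gene span 0.37 over the members, against 0.08 and 0.16 over all genes. That of GC content was -0.35 over the members, against -0.19 over all genes. The part of each feature was not tested.

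**Figure D3:**
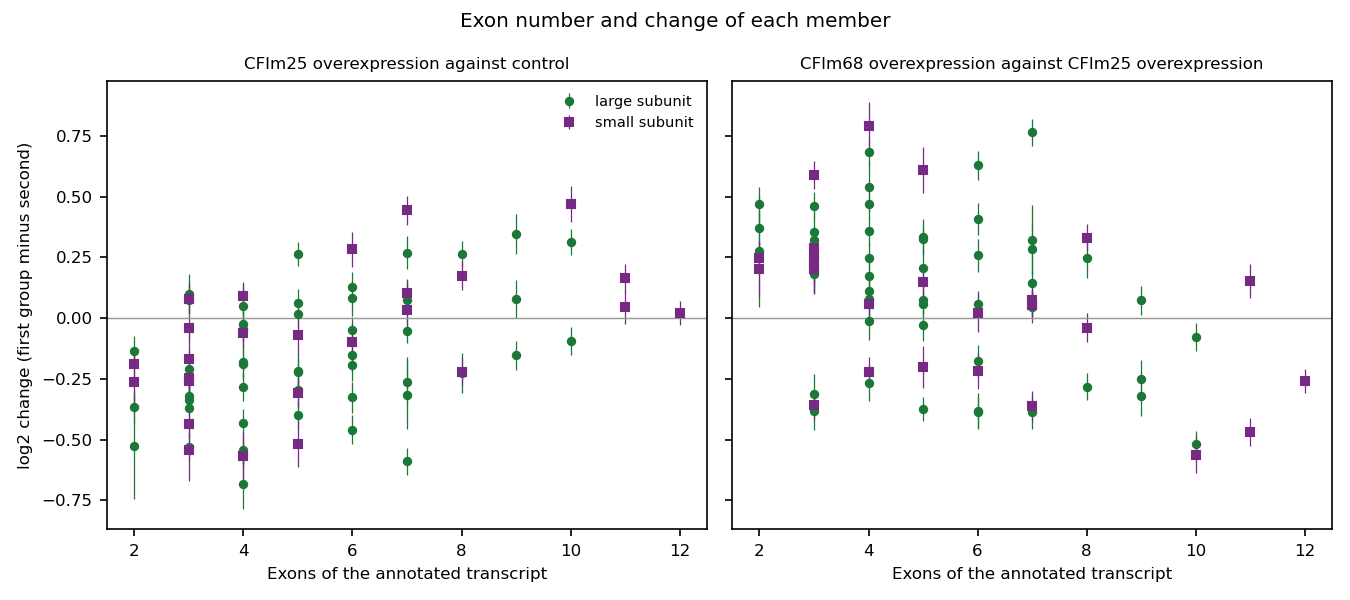
Log2 change ± SE of each member against the exon number of its annotated transcript, for CFIm25 overexpression against control (left) and CFIm68 overexpression against CFIm25 overexpression (right), with MRPL41 and MRPS36 left out of the drawing. On the left, counting those left out, no member with 2 to 4 exons passed as a rise and 22 passed as falls. Members with 7 or more exons lie on both sides of 0. Both panels use the same CFIm25 overexpression libraries.

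CFIm68 overexpression changed the fewest members against control. Of 76 members 9 rose (11.8%) and 15 fell (19.7%), against 14.5% of all tested genes higher and 15.4% lower, and the median log2 change was 0.01. The large subunit had 4 rises and 9 falls, and the small subunit 5 rises and 6 falls. MRPL19 fell most, with 48.7, 44.1 and 40.8 CPM in CFIm68 overexpression, against 70.9, 65.1 and 64 CPM in control (log2 change -0.58 ± 0.07, adjusted p = 1.1e-07). Its groups did not overlap, and the call held once neighbour medians were removed (-0.31, adjusted p = 0.001). MRPS24 had 84.9, 85.1 and 84.7 CPM in CFIm68 overexpression, against 100.1, 97 and 113 CPM in control (-0.28 ± 0.06).

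Most other calls of CFIm68 overexpression lay close to the changes of their neighbours. MRPL27 (-0.32 ± 0.06), MRPL54 (-0.31 ± 0.08), MRPS9 (-0.30 ± 0.06), MRPL30 (-0.30 ± 0.07), MRPL35 (-0.29 ± 0.08) and MRPS33 (-0.28 ± 0.06) fell. After removal of the medians of 50 neighbouring genes none of these 6 passed, their changes being -0.13, -0.13, -0.068, -0.044, -0.021 and -0.10 in that order. MRPL36 (0.23 ± 0.06), MRPS16 (0.22 ± 0.05), MRPS27 (0.20 ± 0.07), MRPL13 (0.18 ± 0.05), MRPL28 (0.17 ± 0.06), MRPL21 (0.16 ± 0.06), MRPS34 (0.15 ± 0.06) and MRPS18B (0.15 ± 0.05) rose. Of these, MRPS16 alone still passed after that removal, and MRPL28 (-0.018) and MRPS34 (-0.032) had changes below 0. In all, 2 members rose and 3 fell in that setting. Over 75 members, MRPL41 left out, the change of a member and the median of its neighbours had a Spearman rho of 0.81, against 0.41 over all tested genes, with the gene itself left out of its window. In CFIm25 knockdown, CFIm68 knockdown and CFIm25 overexpression the members' rho was 0.28, 0.35 and 0.43. The rises numbered 4 without control replicate 1, control replicate 2 or CFIm68 overexpression replicate 2, and 5 without CFIm68 knockdown replicate 3 or CFIm68 overexpression replicate 3.

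**Figure D4:**
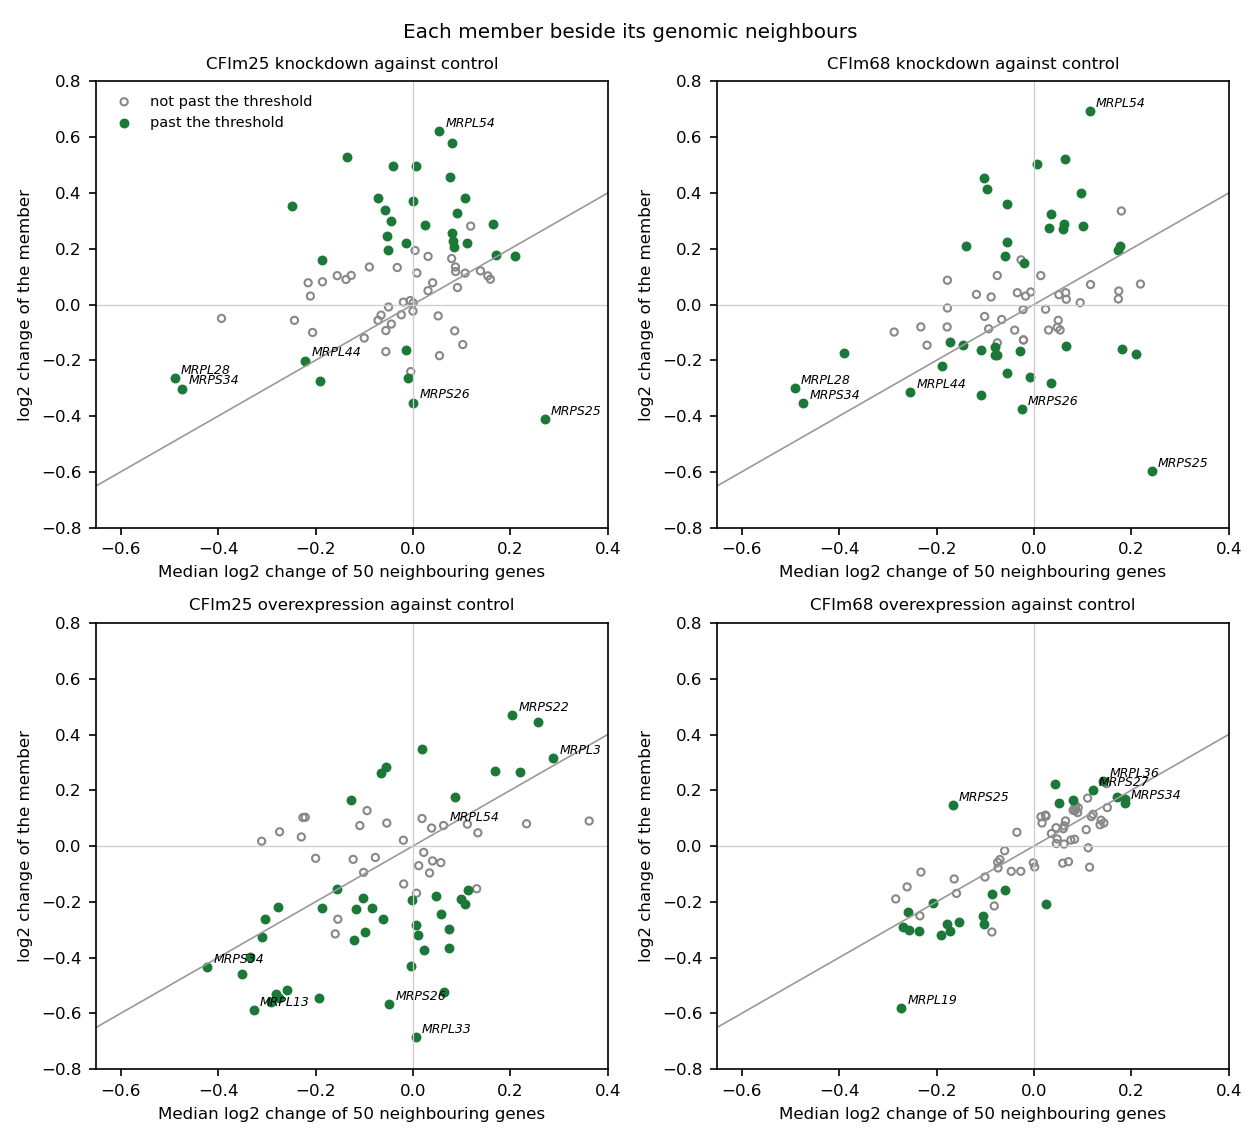
Log2 change of each member (MRPL41 left out) against the median log2 change of the 50 tested genes around it on the chromosome, for each group against control, with the line of equal values in grey and members past the threshold filled. In CFIm68 overexpression the points lie near the line (rho 0.81), while in the knockdowns MRPL54 lies above it and MRPS25 below it.

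The knockdowns differed from each other in 15 members. None of 76 members was higher in CFIm68 knockdown than in CFIm25 knockdown and 15 were lower (19.7%, edgeR), against 11.1% of all tested genes higher and 13.2% lower. At an unadjusted p under 0.05, 1 member was higher (MRPL48, 0.20 ± 0.08), and DESeq2 and limma-voom called 0 each. MRPL35 had 22.7, 23.3 and 23.8 CPM in CFIm68 knockdown, against 31.4 and 33.2 CPM in CFIm25 knockdown (log2 change -0.48 ± 0.07, adjusted p = 1.4e-05). MRPS31 had 59.3, 58.4 and 54 CPM in CFIm68 knockdown, against 77.6 and 73.5 CPM in CFIm25 knockdown (-0.40 ± 0.06). MRPS9, a conserved mtSSU protein, had 98.4, 94.3 and 91.6 CPM in CFIm68 knockdown, against 126 and 118 CPM in CFIm25 knockdown (-0.36 ± 0.06). In these 3 genes the groups did not overlap. MRPL17 (-0.30 ± 0.06), MRPL47 (-0.28 ± 0.07), MRPL24 (-0.28 ± 0.06), MRPL33 (-0.26 ± 0.09) and MRPS18B (-0.25 ± 0.06) were lower in CFIm68 knockdown as well. For MRPL54 the difference between knockdowns was 0.07 ± 0.08 and did not pass. Without CFIm25 knockdown replicate 1 the lower members numbered 8. A fit to these 2 groups alone called 3 members higher and 25 lower, and a fit with the replicate number as a block called 1 higher.

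The overexpression groups differed from each other in 54 members. In CFIm68 overexpression 34 members were higher (44.7%) and 20 lower (26.3%) than in CFIm25 overexpression, against 32.9% of all tested genes higher and 30.8% lower, with a median log2 change of 0.15. The large subunit had 24 higher and 12 lower, and the small subunit 9 higher and 8 lower. MRPS26 (chromosome 20, 3045945 to 3048254) had 36.8, 33.6 and 38.9 CPM in CFIm68 overexpression, against 16.9, 21.8 and 25 CPM in CFIm25 overexpression (log2 change 0.79 ± 0.10, adjusted p = 7.1e-08). MRPL13 had 116, 112 and 112 CPM in CFIm68 overexpression, against 71.1, 65.6 and 63.4 CPM in CFIm25 overexpression (0.76 ± 0.06). MRPL20 (0.68 ± 0.06), MRPL28 (0.63 ± 0.06), MRPS2 (0.61 ± 0.10), MRPS34 (0.59 ± 0.06) and MRPL33 (0.54 ± 0.10) were higher, and none of their libraries overlapped. MRPL41 passed as higher (1.73 ± 0.66) at 11, 10 and 5 counts in CFIm68 overexpression, against 0, 4 and 5 counts in CFIm25 overexpression.

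MRPS22 was lower in CFIm68 overexpression, with 22.9, 21.7 and 21.8 CPM, against 36.4, 30.9 and 30.4 CPM in CFIm25 overexpression (log2 change -0.56 ± 0.08). MRPL3 had 304, 262 and 261 CPM in CFIm68 overexpression, against 411, 391 and 383 CPM in CFIm25 overexpression (-0.52 ± 0.05). MRPS9 (-0.47 ± 0.06), MRPL19 (-0.39 ± 0.07), MRPL47 (-0.39 ± 0.07), MRPL30 (-0.38 ± 0.07), MRPL54 (-0.38 ± 0.08) and MRPL10 (-0.37 ± 0.05) were lower too. Once neighbour medians were removed 25 members were higher and 13 lower, and the median log2 change was 0.05 in place of 0.15. MRPS22 (-0.089), MRPL3 (-0.018), MRPL19 (-0.11), MRPL47 (-0.093) and MRPL30 (-0.10) then did not pass, nor did MRPL28 (0.037), MRPL41 (1.36) or MRPS34 (-0.023).

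**Figure D5:**
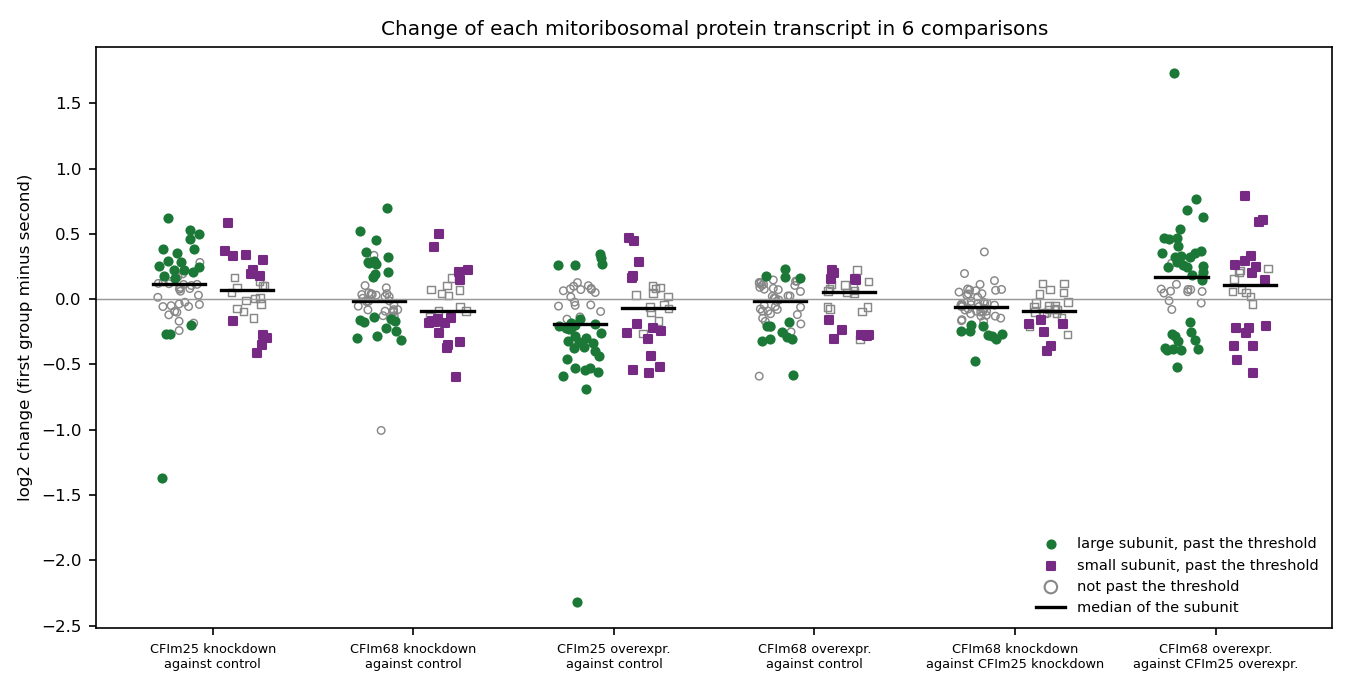
Log2 change of each tested member of either subunit in the 6 comparisons, the first-named group minus the second, with circles for the large and squares for the small subunit, filled where the adjusted p is under 0.05, and a bar at each subunit's median. MRPS36, assigned to neither subunit, is not drawn. The large-subunit median is -0.19 in CFIm25 overexpression against control and 0.17 in CFIm68 overexpression against CFIm25 overexpression, and the isolated points beyond 1 in size are MRPL41.

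The balance of counts between the subunits moved in opposite directions in knockdown and overexpression. The summed counts of mtLSU members over those of mtSSU members had a ratio of 1.91 and 1.93 in CFIm25 knockdown libraries, 1.93, 1.95 and 1.96 in CFIm68 knockdown, 1.6, 1.64 and 1.65 in CFIm25 overexpression, 1.67, 1.64 and 1.67 in CFIm68 overexpression and 1.73, 1.70 and 1.76 in control. Every knockdown library lay above every control and every overexpression library below. MRPS25 is among the small-subunit members with the highest CPM and had the largest falls of well-covered members in the knockdowns. Without it, a choice made after seeing its values, the ratio was 2.12 ± 0.0117 in CFIm25 knockdown, 2.13 ± 0.0203 in CFIm68 knockdown, 1.88 ± 0.0288 in CFIm25 overexpression and 1.91 ± 0.0225 in CFIm68 overexpression, against 1.97 ± 0.0170 in control (SD), and no group overlapped with control. The members together held 0.626% of counts in CFIm25 knockdown, 0.602% in CFIm68 knockdown, 0.591% in CFIm25 overexpression and 0.603% in CFIm68 overexpression, against 0.611% in control. These ratios carry no test, since the members were chosen with earlier results known.

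Members of named places in the large subunit did not move as blocks. Of the stalk proteins MRPL10, MRPL11, MRPL12, MRPL53 and MRPL54, which form the landing site of translation factors, MRPL10 and MRPL54 rose in CFIm25 knockdown and MRPL53 (0.27 ± 0.08) and MRPL54 in CFIm68 knockdown. In CFIm25 overexpression MRPL12 (-0.40 ± 0.06) and MRPL53 (-0.37 ± 0.08) fell while MRPL10 rose. Of MRPL22, MRPL23, MRPL24, MRPL44 and MRPL45, listed around the exit tunnel, MRPL23 (0.35 ± 0.08) and MRPL24 rose in CFIm25 knockdown while MRPL44 fell. In CFIm25 overexpression MRPL23 (-0.22 ± 0.07) and MRPL44 fell while MRPL45 rose. Of MRPL38, MRPL40, MRPL46, MRPL48 and MRPL58 in the central protuberance, 0 passed in CFIm25 knockdown, while MRPL38 (-0.16 ± 0.06) fell and MRPL48 (0.27 ± 0.08) rose in CFIm68 knockdown. In CFIm25 overexpression MRPL38 (-0.15 ± 0.06), MRPL46 and MRPL48 (-0.23 ± 0.08) fell. MRPL58, which also acts as a release factor for stalled mitoribosomes, had 0.13 ± 0.06 there and did not pass. MRPL38 did not pass in the test of any difference among the 5 groups (edgeR F test, adjusted p = 0.068).

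CFIm25 binds UGUA in RNA upstream of cleavage sites, written TGTA in DNA letters. In the last 100 bases of the annotated transcript 35 of 78 members (44.9%) held it, against 54.2% of tested genes, and 64 members had AATAAA or ATTAAA in the last 50 bases. MRPL44, MRPL48 and MRPS6 held 3 copies each. A 30-base window around the copy nearest the 3' end that leaves a full window is shown for them (hg38, GENCODE 29), with that copy in capitals.
MRPL44, chr2:223967665-223967694, forward strand: gtgaattttttgcTGTAataccaataaagt
MRPL48, chr11:73864512-73864541, forward strand: tctgtggcttggcTGTActtgccatttctt
MRPS6, chr21:34142968-34142997, forward strand: aattgacgaccaaTGTAttatatggacaac
These 3 members fell in CFIm25 overexpression, by log2 changes of -0.56 ± 0.06, -0.23 ± 0.08 and -0.54 ± 0.13. In that comparison 36 of 76 members and 29.1% of all tested genes fell. The number of copies and that change had a Spearman rho of -0.14 across the members, against 0.03 across all genes. In CFIm25 knockdown MRPL44 fell and MRPL48 did not pass. In CFIm68 knockdown MRPL44 fell, MRPL48 rose and MRPS6 did not pass (0.07 ± 0.11). Over all tested members the median log2 change with at least 1 copy and without was 0.13 and 0.09 with CFIm25 knocked down, 0.03 and -0.05 with CFIm68 knocked down, -0.19 and -0.12 in CFIm25 overexpression and -0.02 and 0.02 in CFIm68 overexpression. Counts per gene hold no polyadenylation sites, so the use of these sites was not analysed here.

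The remaining genes of the mitoribosome and of mitochondrial gene expression are set beside the members, with counts of genes that rose and fell. Over all tested genes 24.4% rose and 23.2% fell in CFIm25 knockdown, and 28.3% and 28.1% in CFIm68 knockdown. The shares were 27.7% and 29.1% in CFIm25 overexpression and 14.5% and 15.4% in CFIm68 overexpression. They apply to every list here and in the following paragraphs, and no list was tested against them. Of 5 mitoribosome proteins with other names 3 rose and 1 fell in each knockdown. DAP3, a GTP-binding mtSSU protein, rose in both (log2 changes of 0.27 ± 0.05 for CFIm25 and 0.31 ± 0.05 for CFIm68), and AURKAIP1 of the same subunit fell in both (-0.65 ± 0.16 for CFIm25 and -0.49 ± 0.14 for CFIm68). AURKAIP1 also fell in CFIm25 overexpression (-1.25 ± 0.15, adjusted p = 9.5e-08). PTCD3, a pentatricopeptide protein of the small subunit, fell in CFIm68 overexpression (-0.27 ± 0.05). Of 23 assembly and rRNA modification genes 7 rose and 5 fell with CFIm25 knocked down, 6 and 10 in CFIm68 knockdown, 8 and 5 in CFIm25 overexpression and 4 and 1 in CFIm68 overexpression. The GTPase MTG1 fell in both knockdowns (-0.29 ± 0.06 for CFIm25 and -0.45 ± 0.06 for CFIm68), and its relative MTG2 rose in both (0.35 ± 0.08 for CFIm25 and 0.43 ± 0.08 for CFIm68).

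Of 16 mitochondrial translation factors 7 rose and 2 fell with CFIm25 knocked down, 4 and 6 in CFIm68 knockdown, 8 and 1 in CFIm25 overexpression and 2 and 4 in CFIm68 overexpression. TSFM, the mitochondrial elongation factor Ts, fell in CFIm68 knockdown by more than any member that passed (log2 change -1.81 ± 0.07, adjusted p = 2.0e-18), and it was lower there than in CFIm25 knockdown (-1.93 ± 0.07). MTFMT, which formylates the initiator tRNA, also fell in CFIm68 knockdown (-0.76 ± 0.07). The elongation factor GFM1 rose in CFIm25 knockdown (0.35 ± 0.06), CFIm68 knockdown (0.41 ± 0.05) and CFIm25 overexpression (0.45 ± 0.05) and fell in CFIm68 overexpression (-0.30 ± 0.05). Of 19 mitochondrial aminoacyl-tRNA synthetases 7 rose and 3 fell with CFIm25 knocked down, 2 and 5 in CFIm68 knockdown, 7 and 5 in CFIm25 overexpression and 4 and 0 in CFIm68 overexpression. VARS2 fell in both the CFIm25 (-0.89 ± 0.08) and the CFIm68 knockdown (-1.07 ± 0.07). Of 15 genes of mitochondrial transcription and RNA turnover 3 rose and 4 fell with CFIm25 knocked down, 4 and 7 in CFIm68 knockdown, 5 and 3 in CFIm25 overexpression and 2 and 1 in CFIm68 overexpression. PNPT1, an RNA-degrading enzyme, fell in the knockdowns of CFIm25 (-0.39 ± 0.06) and of CFIm68 (-0.59 ± 0.06). Of 10 regulators of mitochondrial biogenesis 4 rose and 1 fell with CFIm25 knocked down, 2 and 1 in CFIm68 knockdown, 6 and 2 in CFIm25 overexpression and 1 and 2 in CFIm68 overexpression. MYC and PPARGC1A rose in CFIm25 overexpression by log2 changes of 1.05 ± 0.11 and 1.07 ± 0.16, beside the falls of 36 members there.

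The cytosolic ribosome and the respiratory chain gave other counts, to be read beside the same shares over all tested genes. Of 77 cytosolic ribosomal protein genes 52 rose and 1 fell in CFIm25 knockdown (median log2 change 0.28) and 61 rose and 0 fell in CFIm68 knockdown (median 0.28), against medians of 0.10 and -0.02 for the members. In CFIm25 overexpression 12 of them rose and 24 fell (median -0.04), and in CFIm68 overexpression 16 rose and 7 fell (median 0.07). Of 75 nuclear-encoded respiratory chain subunits 38 rose and 6 fell in CFIm25 knockdown (median 0.19) and 36 rose and 15 fell in CFIm68 knockdown (median 0.13). In CFIm25 overexpression 5 of these subunits rose and 56 fell (median -0.25), and in CFIm68 overexpression 9 rose and 10 fell (median 0.02). No test of the difference between these lists and the members was run.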

How the data were processed

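The deposited table gives the authors' raw counts, whole numbers of reads for each Ensembl gene. The submitters' processing notes name cutadapt 1.16, STAR 2.7.1a and hg38. Libraries were stranded mRNA libraries from total RNA, per the labels' protocols. How reads were assigned to genes (tool, annotation, strand) is not stated in these sources. Groups and replicate numbers came from the labels.

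The whole table was fitted with edgeR 4.0.16 in R 4.3.3: filterByExpr (minimum count 10, minimum total 15) kept 12080 genes, TMM gave factors of 0.973 to 1.05, and a quasi-likelihood model with 1 term per group was fitted to all 14 libraries. Benjamini-Hochberg adjustment ran over all tested genes (threshold 0.05). Log2 changes are given ± SE from the quasi-likelihood statistic, and CPM uses TMM-scaled library sizes. The method was tested on simulated counts in which few genes were changed. Of 1.25-fold changes it recovered 40% for CFIm25 knockdown, 46% for CFIm68 knockdown, 66% for CFIm25 overexpression and 70% for CFIm68 overexpression. At 1.5-fold these shares were 84%, 74%, 76% and 80%. Small changes can therefore be missed. Totals of 15822467 to 33895308 counts set the precision, and the common dispersion had a square root of 0.0501.

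The members and lists were chosen with earlier results of these data known. Named in each comparison are the 8 largest rises and 8 largest falls past the threshold, the 3 highest and 3 lowest levels, untested members, members of role groups of 5 or fewer, and up to 3 genes per other list. As alternatives, the fit was repeated with DESeq2 1.42.0, with size factors by median ratio, without a filter, with a minimum of 1 CPM in 3 libraries, with a block for replicate number, with limma-voom (limma 3.58.1), with the compared groups alone, after removing the median change of 50 neighbouring genes, and without each library in turn. Exons, transcripts and 3' ends are from GENCODE 29, and promoters from RefSeq. Figures used Python 3.11.15, pandas 2.3.3 and matplotlib 3.10.9.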

Additional observations from a re-analysis of the deposited data

Results flagged for a closer look

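Members were looked at again where their changes ran in opposite directions between the CFIm25 and CFIm68 groups. Each change passed against control, and the difference itself was tested with edgeR. MRPS31 fell in CFIm68 knockdown (-0.18 ± 0.06) and rose in CFIm25 knockdown (0.22 ± 0.07), a difference of -0.40 ± 0.06 (adjusted p = 3.6e-05). MRPS9 fell in CFIm68 knockdown (-0.17 ± 0.06) and rose in CFIm25 knockdown (0.19 ± 0.06), a difference of -0.36 ± 0.06 (adjusted p = 5.3e-05). With the medians of neighbouring genes removed these differences were -0.40 and -0.40 and passed.

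MRPS9 also fell in CFIm68 overexpression (-0.30 ± 0.06) and rose in CFIm25 overexpression (0.17 ± 0.06), a difference of -0.47 ± 0.06, which was -0.32 with the medians of neighbours removed. In that setting its change in CFIm68 overexpression against control was -0.068 and did not pass. MRPL13 rose in CFIm68 overexpression (0.18 ± 0.05) and fell in CFIm25 overexpression (-0.59 ± 0.06), a difference of 0.76 ± 0.06, or 0.26 with those medians removed. Its change in CFIm68 overexpression against control was then 0.0061 and did not pass. Without control replicate 2 that change was 0.16 and did not pass either. MRPL28 rose in CFIm68 overexpression (0.17 ± 0.06) and fell in CFIm25 overexpression (-0.46 ± 0.06), a difference of 0.63 ± 0.06. MRPS34 rose in CFIm68 overexpression (0.15 ± 0.06) and fell in CFIm25 overexpression (-0.43 ± 0.06), a difference of 0.59 ± 0.06. MRPL3 fell in CFIm68 overexpression (-0.20 ± 0.05) and rose in CFIm25 overexpression (0.31 ± 0.05), a difference of -0.52 ± 0.05. For these last 3 members the neighbours differed by 0.59, 0.61 and -0.50, and with their medians removed the differences were 0.037, -0.023 and -0.018 and did not pass.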

How the results depend on the processing

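Of 88 named calls, 22 alternatives gave 1931 values: 1840 kept direction and side of the threshold, 83 kept direction but missed it, and 8 reversed. All 8 reversals came with the medians of 50 neighbouring genes removed: 0.17 for MRPS34, 0.22 for MRPL28 and 0.021 for MRPL44 in CFIm25 knockdown, 0.12 for MRPS34 and 0.19 for MRPL28 in CFIm68 knockdown, -0.018 for MRPL28 and -0.032 for MRPS34 in CFIm68 overexpression, and -0.023 for MRPS34 between the overexpression groups. Of these, MRPS34 and MRPL28 in CFIm25 knockdown and MRPL28 in CFIm68 knockdown passed as rises, and the rest did not pass. The neighbour setting kept 55 of the 88 calls. It moved the rises of CFIm68 overexpression to 2, its falls to 3, and the members lower in CFIm68 than in CFIm25 overexpression to 13. It also moved the median log2 change of the members from -0.16 to -0.09 in CFIm25 overexpression against control. Between the overexpression groups that median went from 0.15 to 0.05. A fit to the groups compared gave 3 members higher and 25 lower in CFIm68 than in CFIm25 knockdown. Leaving out 1 library at a time gave 4 to 12 falls in CFIm25 knockdown, 12 to 22 falls in CFIm68 knockdown, 4 to 12 rises in CFIm68 overexpression, and 8 to 17 members lower in CFIm68 than in CFIm25 knockdown. The cause was not tested in any of these. With the replicate block 1 member was higher in CFIm68 than in CFIm25 knockdown, and the block changed 0 of the 88 named calls. Deviations from the group means correlated at -0.06 to 0.17 between same-numbered libraries and at -0.18 to 0.08 between differently numbered ones. Between the overexpression groups the same-numbered libraries had 0.17, 0.02 and 0.11. Whether the numbers pair libraries cannot be settled from these values, since each mean rests on few libraries. Outside the neighbour setting the calls most often lost were the small rises of CFIm68 overexpression (MRPS34, MRPS18B, MRPS27, MRPL21, MRPL28), MRPL33 between the knockdowns, and MRPL41. Neighbour medians and the 2-group fit were not run for the test of any difference. At 0 to 20 counts a library, changes of MRPL41 are poorly resolved, and MRPL43 and MRPL57 were not tested.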
